A study of Mus musculus with 13 samples.

Results

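The genes of MHC class II antigen presentation are described here in bulk RNA-seq of the mouse brain during cuprizone-induced demyelination and recovery. The 7 genes were listed by name (H2-Aa, H2-Ab1, H2-Eb1, Cd74, Ciita, H2-DMa and H2-DMb1) and were all found among the 55401 genes of the deposited tables, each under a single identifier. Their levels were not used to choose them, although earlier results of these data were known when they were chosen. The data comprised 13 libraries, each from 1 brain hemisphere of a male wild-type C57BL/6J mouse. The labels give an age of 6 to 8 weeks, and the authors' text gives a higher one. Whether the label age is that at the start of feeding or at tissue collection was not established. The CTL group (n = 5) ate normal chow for 6 weeks. The CPZ group (n = 4) ate chow with 0.3% cuprizone, a copper chelator that kills mature oligodendrocytes, for 4 weeks and was killed at its end. The RCV group (n = 4) had the same 4 weeks of cuprizone and then 2 weeks of normal chow. CPZ mice were thus killed 2 weeks earlier than the other groups, and no mice on normal chow were killed at that time. RCV is the group named by the treatment label, although its library titles start with "Veh", which is not explained. The labels state smaller groups than the libraries present, and all 13 libraries were used.

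Class II molecules are heterodimers of an α and a β chain that show peptides from endosomes to CD4+ T cells. The invariant chain, encoded by Cd74, occupies the groove of newly made dimers and guides them to endosomes, where proteases cut it down to a short peptide. The H2-DM heterodimer then removes that peptide and helps other peptides to bind. Ciita is the coactivator that switches on these genes together, and interferon-γ is its best known inducer. In the healthy brain little class II is seen on microglia, which can gain it in inflammation and demyelination, while border macrophages, dendritic cells and B cells carry it as a rule.

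H2-Aa encodes the α chain and H2-Ab1 the β chain of I-A, and H2-Eb1 encodes the β chain of I-E. In GENCODE release M21 (GRCm38) they lie together on chromosome 17, H2-Ab1 at chr17:34257689-34269419 on the plus strand, H2-Aa at chr17:34282744-34287823 on the minus strand and H2-Eb1 at chr17:34305867-34316674 on the plus strand. H2-DMa (chr17:34119541-34139101) and H2-DMb1 (chr17:34153072-34160230), for the α chain and one of the β chains of H2-DM, lie in the same region on the plus strand. All 7 are protein-coding genes, and the counts cover whole genes rather than single exons. H2-Ea, for the α chain of I-E, is carried as a broken allele by C57BL/6 mice and was listed at 0 in all libraries.

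Ciita acts through proteins bound to a conserved promoter module of class II genes, which includes an X box and, downstream of it, an inverted CCAAT element called the Y box. RefSeq promoter windows of 300 bases (250 before to 50 after the start, GRCm38.p6) were at hand for 4 of the members. Stretches of H2-Aa and H2-Eb1 are shown because both hold the letters of such a module and lie outside the genes as placed by GENCODE M21. They run 5′ to 3′ from 120 to 21 bases before the start, and capitals mark the letters TGANG and, downstream, GATTGG.
H2-Aa, chr17:34287844-34287943, minus strand: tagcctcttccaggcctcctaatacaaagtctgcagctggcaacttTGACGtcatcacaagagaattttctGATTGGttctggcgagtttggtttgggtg
H2-Eb1, chr17:34305747-34305846, plus strand: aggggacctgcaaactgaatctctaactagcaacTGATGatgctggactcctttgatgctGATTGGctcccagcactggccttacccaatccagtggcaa

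In H2-Aa the TGANG letters begin 74 bases and the GATTGG letters 49 bases before the start. In H2-Eb1 they begin 86 and 60 bases before it. The H2-DMb1 window has the same pair at 89 and 62 bases before its RefSeq start. These letters lie inside the H2-DMb1 gene as placed by GENCODE M21, and the stretch is not printed. TGANG followed by GATTGG after 15 to 25 bases, on either strand, was found in 3 of the 5 windows of the members and in 0.846% of all 32851 windows. GATTGG alone (either strand, and contained in the pair) was found in 4 of the 5 windows and in 16.1% of all windows. The 8-base letters TGACGTCA, which overlap the TGANG of H2-Aa and read the same on both strands, were in 1 of the 5 windows and in 1.79% of all. The letters and the spacing were chosen with these windows in view, so the counts describe the windows and test nothing.

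The libraries held between 4605100 and 8197289 estimated counts, lowest in RCV 4. The authors deposited estimated counts, not scaled to library size, and TPM, which are scaled to transcript length and library size. CPM below are counts scaled to a common library size by the TMM method. A gene was called at an adjusted p below 0.05 in the quasi-likelihood test of edgeR, where p values were adjusted over 14985 genes by the Benjamini-Hochberg procedure. Class II transcripts were rare at this depth, with 4 to 54 counts per CTL library for the 6 members tested. Ciita did not pass the filter on low counts. RCV 3 and RCV 4 stood apart with almost no choroid plexus RNA, the summed CPM of 8 choroid plexus genes being 21.4 and 16.5 against 426 to 2788 in the other 11 libraries. All 3 comparisons come from one fit, and both comparisons against CTL share the 5 CTL libraries.

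The class II genes fell into different orders over the groups. Cd74 and the I-A α chain gene H2-Aa had their highest means in RCV and were called higher in RCV than in CTL. H2-DMa and H2-DMb1 had their highest means in CPZ and lower means in RCV, a difference that was called for H2-DMb1. Of the 6 members tested, 3 were called in CPZ against CTL (Cd74, H2-DMa and H2-DMb1, all higher), where 10.2% of all genes were called and 7.66% were called higher. In RCV against CTL 2 were called (Cd74 and H2-Aa, both higher), where 0.374% of all genes were called and 0.36% were called higher. In CPZ against RCV only H2-DMb1 was called, higher in CPZ, where 7.01% of all genes were called and 5.13% were called higher. The median log2 fold change of the 6 members was 1.26 in CPZ against CTL and 1.41 in RCV against CTL, beside medians of -0.02 and -0.0044 over all genes.

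**Figure D1:**
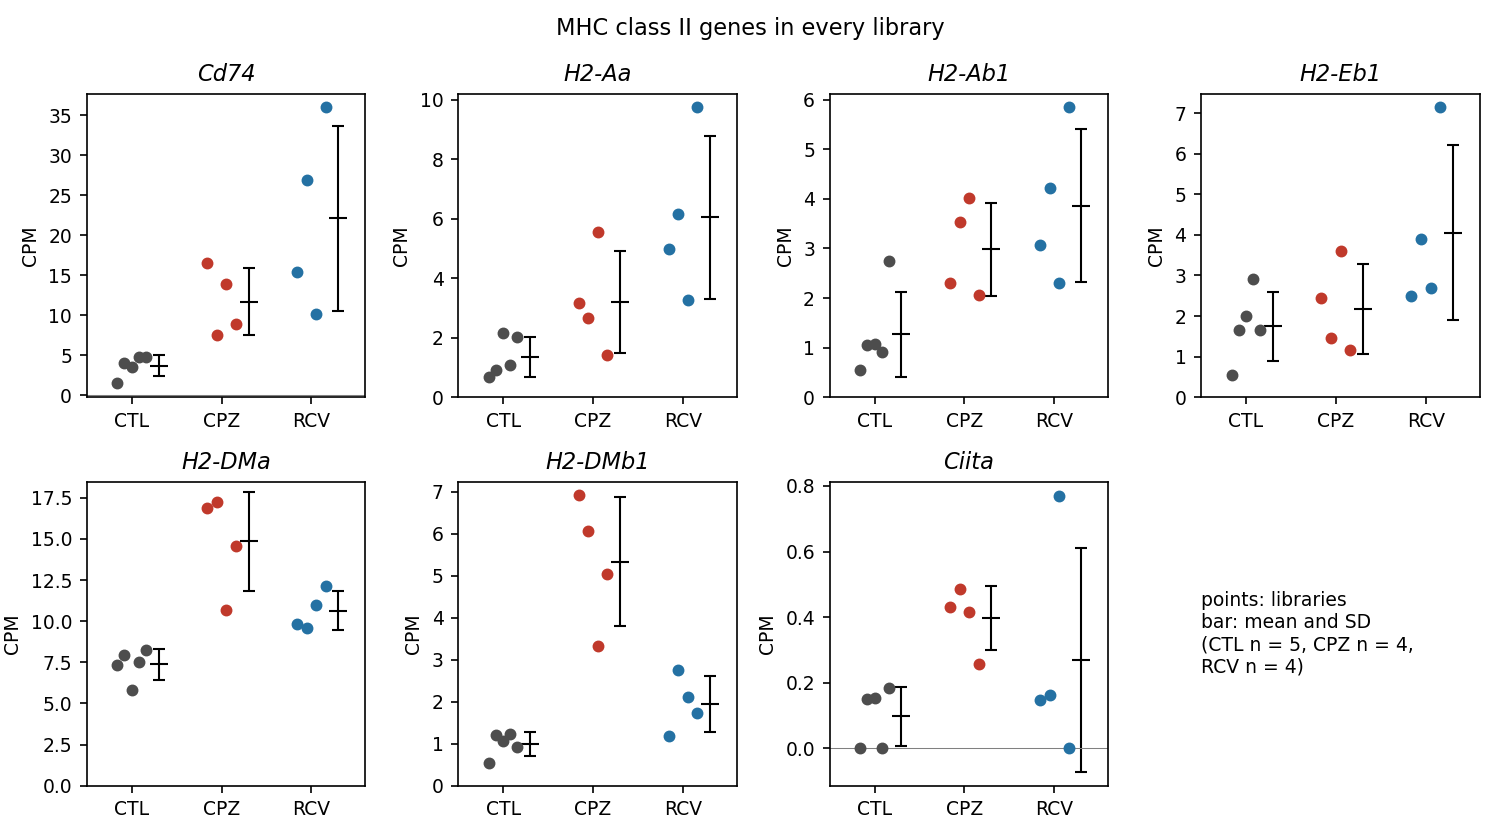
CPM (y axis, linear) of the 7 class II genes in every library of CTL, CPZ and RCV. Points are libraries and bars the mean and SD. Cd74 had its highest group mean in RCV (22.1 CPM) and H2-DMb1 in CPZ (5.34 CPM).

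Cd74, on chromosome 18, was the member with the largest rise in RCV. Its CPM in CTL 1 to 5 were 1.495, 4.05, 3.53, 4.74 and 4.77. In CPZ 1 to 4 they were 16.6, 7.54, 13.9 and 8.91, and in RCV 1 to 4 they were 15.4, 26.9, 10.2 and 36.0. All CPZ and RCV libraries lay above all CTL libraries, and the CPZ and RCV libraries overlapped, with RCV 1 and RCV 3 inside the CPZ range. The log2 fold change was 1.66 ± 0.42 (SE) in CPZ against CTL (adjusted p = 0.024, edgeR) and 2.58 ± 0.41 in RCV against CTL (adjusted p = 0.0203, edgeR). The difference between CPZ and RCV, -0.91 ± 0.38 on the log2 scale, was not called (adjusted p = 0.211, edgeR). The call in RCV was lost when any one CTL library or RCV 2 was left out (adjusted p from 0.0542 to 0.101, edgeR), and that in CPZ when CTL 1, CTL 3, CPZ 1 or CPZ 3 was left out (adjusted p from 0.0554 to 0.0872, edgeR). The log2 fold changes themselves stayed between 2.25 and 2.81 in RCV and between 1.45 and 1.83 in CPZ. DESeq2 called Cd74 in both comparisons, and limma-voom in neither (adjusted p = 0.148 in RCV and 0.078 in CPZ).

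H2-Aa followed the same order. Its CPM in CTL 1 to 5 were 0.680, 0.90, 2.15, 1.07 and 2.02. CPZ 1 to 4 gave 3.17, 2.67, 5.55 and 1.42, and RCV 1 to 4 gave 4.98, 6.16, 3.27 and 9.76. The RCV libraries lay above all CTL libraries, while CPZ 4 lay within the CTL range. The log2 fold change in RCV against CTL was 2.15 ± 0.43 (adjusted p = 0.0429, edgeR), and leaving out any of 10 libraries, all but CPZ 3, CPZ 4 and RCV 3, moved it past the threshold (adjusted p up to 0.153, edgeR), while the log2 fold change stayed between 1.84 and 2.39. In CPZ against CTL it was 1.24 ± 0.44 and was not called (adjusted p = 0.0977, edgeR), and without CPZ 4 it was called (adjusted p = 0.0365, edgeR). These levels rest on few counts, from 5 to 14 per CTL library and from 17 to 45 per RCV library.

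H2-Ab1, the partner of H2-Aa in I-A, had means of 1.27 ± 0.856 CPM in CTL (SD, n = 5), 2.98 ± 0.945 in CPZ (SD, n = 4) and 3.86 ± 1.54 in RCV (SD, n = 4). CTL 5, at 2.75 CPM, lay inside the range of both other groups, and the remaining CTL libraries lay at 0.544 to 1.08 CPM, below all of them. It was not called in CPZ (log2 fold change 1.28 ± 0.40, adjusted p = 0.0547, edgeR) or in RCV (1.63 ± 0.40, adjusted p = 0.129, edgeR). Without CTL 5 both became calls, with adjusted p of 0.00671 and 0.0363 (edgeR). In CPZ the call also appeared without CPZ 4, RCV 3 or RCV 4. DESeq2 called H2-Ab1 in both comparisons, with adjusted p of 0.0335 in CPZ and 0.0236 in RCV. By limma-voom it was called in CPZ (adjusted p = 0.0342) and not in RCV (adjusted p = 0.162). Fits on the log2 TPM scale called it in neither. Of 23 alternatives, 14 left it uncalled in CPZ and 20 in RCV.

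H2-Eb1, the I-E β chain gene, differed least in CPZ. Its CPM were 0.544 to 2.91 in CTL, 1.16 to 3.61 in CPZ and 2.49 to 7.16 in RCV, and all groups overlapped. The log2 fold change was 0.31 ± 0.45 in CPZ (adjusted p = 0.778, edgeR) and 1.19 ± 0.44 in RCV (adjusted p = 0.542, edgeR). An antisense gene overlaps H2-Eb1, and since the strand setting of the counting was not stated, reads of the 2 genes may not have been told apart.

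H2-DMa had the highest mean TPM of the members in CTL and CPZ. Its CPM in CTL 1 to 5 were 7.34, 7.95, 5.84, 7.49 and 8.25. CPZ 1 to 4 gave 16.9, 17.3, 10.7 and 14.6, and RCV 1 to 4 gave 9.82, 9.56, 10.97 and 12.1. Every CPZ and every RCV library lay above every CTL library, with RCV in the gap between them apart from an overlap with CPZ 3. H2-DMa rose in CPZ against CTL (log2 fold change 1.01 ± 0.15, adjusted p = 0.0002, edgeR), in all alternatives run. It was not called in RCV against CTL (0.52 ± 0.16, adjusted p = 0.324, edgeR) or in CPZ against RCV (0.49 ± 0.16, adjusted p = 0.0743, edgeR), the last being a call without CPZ 3 (adjusted p = 0.0103, edgeR). Brd2, a pseudogene and an antisense gene overlap H2-DMa on the opposite strand and CR974462.3 on the same strand, so that reads of these genes and of H2-DMa may not have been told apart in the counting.

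H2-DMb1 had the largest rise of the members in CPZ. Its CPM in CTL 1 to 5 were 0.544, 1.20, 1.08, 1.22 and 0.917. CPZ 1 to 4 gave 6.91, 6.08, 3.33 and 5.04, and RCV 1 to 4 gave 1.17, 2.75, 2.12 and 1.73. The CPZ libraries stood above all others, and RCV 1 fell within the CTL range. The log2 fold change was 2.41 ± 0.30 in CPZ against CTL (adjusted p = 4.1e-05, edgeR), 0.96 ± 0.35 in RCV against CTL (adjusted p = 0.542, edgeR) and 1.45 ± 0.30 in CPZ against RCV (adjusted p = 0.00699, edgeR). The last call was lost without both RCV 3 and RCV 4, with a log2 fold change of 1.46 (adjusted p = 0.0598, edgeR), and on the log2 TPM scale, where it was 0.92 to 1.07. H2-DMb1 shares reads with its near-identical copy H2-DMb2: its estimate was not a whole number in 11 libraries, while the sum of the pair was whole within 0.011 in all 13. That sum was 5 to 16 counts in CTL, 30 to 64 in CPZ and 9 to 24 in RCV.

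Ciita, on chromosome 16, was at the limit of detection. It had 0, 1, 1, 0 and 1 counts in CTL 1 to 5, then 3, 4, 3 and 2 counts in CPZ 1 to 4, and 1, 1, 4 and 0 counts in RCV 1 to 4. The CPZ libraries had more counts than the CTL libraries, and RCV 3 and RCV 4 spanned the range of both. It was not tested, and no fold change is given for counts this low.

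**Figure D2:**
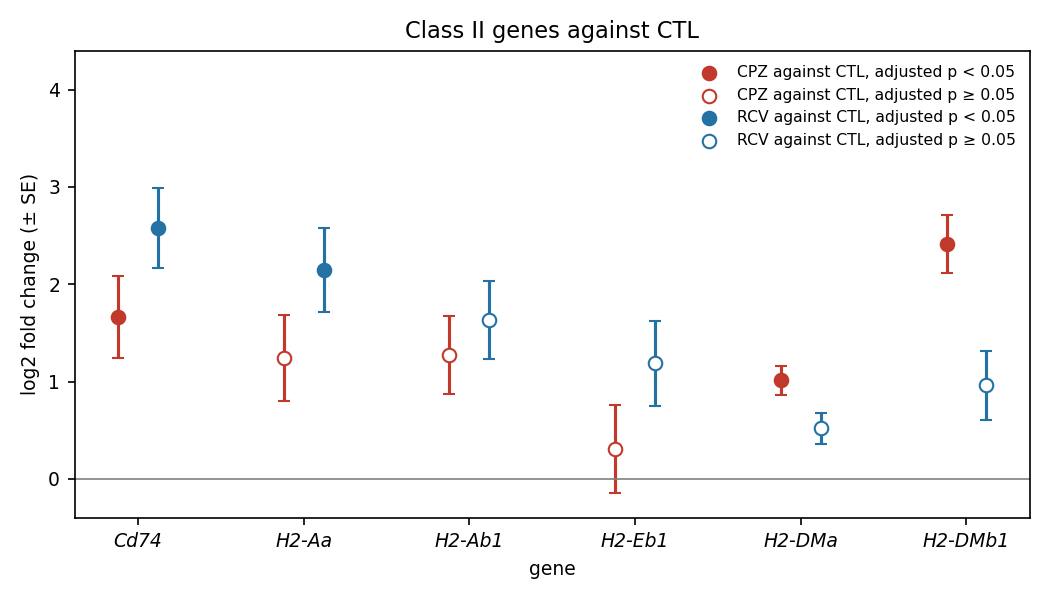
Log2 fold change (y axis) against CTL of the 6 class II genes tested, in CPZ (red) and RCV (blue), with bars for the SE. Filled points have an adjusted p below 0.05. Cd74 was at 1.66 in CPZ and 2.58 in RCV, and H2-DMb1 at 2.41 in CPZ and 0.96 in RCV.

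The groups' libraries did not overlap in CPM for 3 of the 6 members in CPZ against CTL (13.1% of all genes), for 3 in RCV against CTL (2.9% of all genes) and for 1 in CPZ against RCV (13.2% of all genes). In RCV against CTL these were Cd74, H2-Aa and H2-DMa. Of the 54 genes called higher in RCV than in CTL, 4 had a higher fitted level in RCV than in CPZ, and 2 of these were Cd74 and H2-Aa. For both, the difference between CPZ and RCV was not called (adjusted p = 0.211 and 0.23, edgeR). The 54 genes were taken for their high RCV levels, so this count tests nothing. The others were Sirt2 and Clu, which were named after their values were seen. That difference was called for Sirt2 (adjusted p = 0.0126, edgeR) and not for Clu (adjusted p = 0.447, edgeR). By log2 fold change Cd74 ranked 11 and H2-Aa 15 among the 54.

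Levels can be compared between the genes on the TPM scale. In CTL the order was H2-DMa (15.4 ± 3.27 TPM, SD, n = 5), Cd74 (6.80 ± 2.44), H2-Eb1 (4.41 ± 2.09), H2-Aa (2.98 ± 1.26), H2-Ab1 (2.94 ± 1.96) and H2-DMb1 (2.42 ± 0.896), with Ciita last at 0.078 ± 0.0867. H2-DMa lay above Cd74 in every CTL library, and the neighbours from Cd74 to H2-DMb1 overlapped. In CPZ the order was H2-DMa (31.0 ± 6.63 TPM, SD, n = 4), Cd74 (21.4 ± 7.38), H2-DMb1 (8.84 ± 2.64), H2-Aa (6.73 ± 3.65), H2-Ab1 (5.89 ± 1.80), H2-Eb1 (5.48 ± 3.26) and Ciita (0.160 ± 0.0163). H2-DMa and Cd74 overlapped there, and Cd74 lay above H2-DMb1 in every library. In RCV Cd74 came first (40.5 ± 21.3 TPM, SD, n = 4), before H2-DMa (22.5 ± 4.21), H2-Aa (12.7 ± 5.84), H2-Eb1 (9.33 ± 5.71), H2-Ab1 (8.195 ± 2.91), H2-DMb1 (4.16 ± 1.35) and Ciita (0.0875 ± 0.111). Each of the first 6 overlapped with its neighbour in RCV. The within-library difference of Cd74 from H2-DMa in log2-CPM went from -1.01 ± 0.61 in CTL to -0.38 ± 0.68 in CPZ and 0.88 ± 0.78 in RCV, a pair chosen after its values were seen and not tested.

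The members' patterns were compared over the 13 libraries. Pearson correlations of log2-CPM were 0.904 for Cd74 with H2-Aa, 0.903 for H2-Aa with H2-Ab1 and 0.816 for Cd74 with H2-Eb1. That of H2-DMa with H2-DMb1 was 0.885. The 8 pairs of an H2-DM gene with one of the other members ran from 0.138 (H2-DMa with H2-Eb1) to 0.585 (H2-DMa with H2-Ab1), with Cd74 at 0.566 and 0.529. After the group means were removed, Cd74 kept 0.701 with H2-Aa and 0.859 with H2-Eb1, H2-DMa and H2-DMb1 kept 0.397, and Cd74 and H2-DMb1 kept 0.335. These points share libraries, depth and groups. Outside the members, and among the 14143 genes that averaged at least 1 in log2-CPM, the pattern most like that of Cd74 was that of Cybb, the membrane subunit of the phagocyte NADPH oxidase (r = 0.892, 0.823 without group means, n = 13), followed by Wnk4 (0.863), Sumf1 (0.862), Clu (0.838) and Gfpt2 (0.815). For H2-Ab1, again outside the members, it was Cybb (0.870), then Dpm1 (0.830), Scp2-ps2 (0.824), Srp9 (0.805) and Galnt2 (0.791). Mean CPM of Cybb were 0.618 in CTL, 7.87 in CPZ and 6.33 in RCV.

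Whether Cd74 differed by as much as microglia markers in general was asked with the log2-CPM of Cd74 minus the mean log2-CPM of 15 microglia markers in the same library. In a hemisphere, fewer cells of a type and less RNA per cell cannot be told apart. All 15 markers passed the test in CPZ against CTL and in CPZ against RCV, higher in CPZ in both, where 7.66% and 5.13% of all genes were called higher. In RCV against CTL 0 markers were called, where 10 had an unadjusted p below 0.05 (edgeR) and where DESeq2 called 7 and limma-voom 0. The difference was -3.60, -2.47, -2.38, -2.09 and -2.08 in CTL 1 to 5. It was -2.96, -3.96, -2.19 and -3.20 in CPZ 1 to 4, and -1.06, -0.47, -1.48 and -0.04 in RCV 1 to 4. All RCV libraries lay above all other libraries, and CTL and CPZ overlapped. Relative to the markers Cd74 was 1.76 log2 units higher in RCV than in CTL (exact two-sided permutation test, p = 0.0159, adjusted p = 0.0429 over 3 comparisons), and each of the 4 RCV libraries was higher than each CTL library. Between CPZ and RCV the difference was -2.31 (exact two-sided permutation test, p = 0.0286, adjusted p = 0.0429). Between CPZ and CTL it was -0.55 (exact two-sided permutation test, p = 0.238, adjusted p = 0.238). The first pair of p values is the smallest that 4 libraries against 5 and 4 against 4 can give. Without RCV 3 and RCV 4 the differences were 1.76 for RCV against CTL and -2.31 for CPZ against RCV, and the smallest p possible there, 0.0952, is above the threshold.

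**Figure D3:**
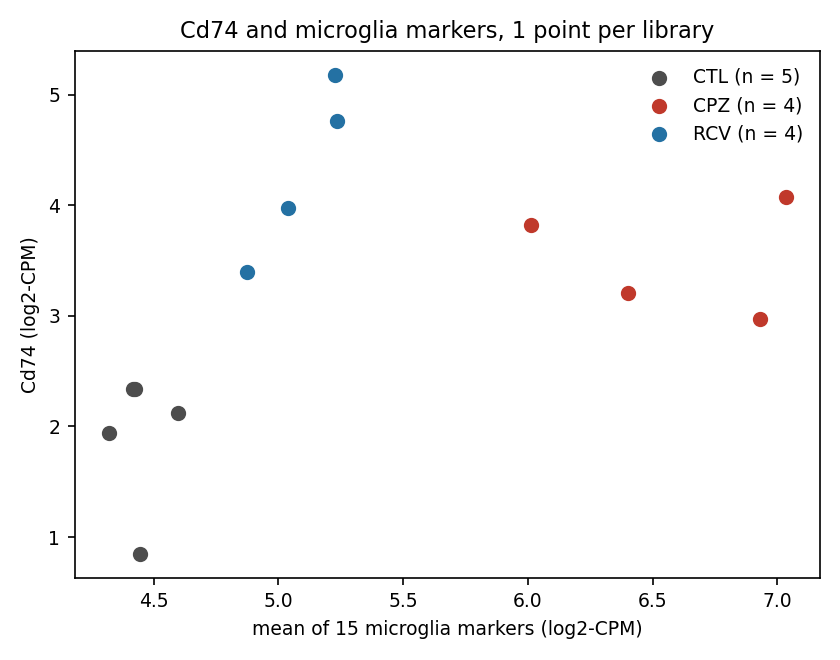
Cd74 (y axis, log2-CPM) against the mean of 15 microglia markers (x axis, log2-CPM), 1 point per library. The 4 RCV libraries (blue) lay at marker means of 4.88 to 5.23, between CTL (grey) and CPZ (red), with Cd74 at 3.39 to 5.18, while CPZ had Cd74 at 2.97 to 4.08.

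The share of the CPZ change that was still present in RCV, as the ratio of the 2 log2 fold changes against the same CTL libraries, was 1.55 for Cd74, 0.514 for H2-DMa and 0.398 for H2-DMb1. Over the 15 microglia markers it ran from -0.0487 (Tmem119) to 0.438 (C1qa), with a median of 0.282. Over the 10 MHC class I genes called in CPZ it ran from 0.256 to 0.579, with a median of 0.391. H2-DMb1 thus lay inside both ranges, H2-DMa above the microglia range and inside the class I range, and Cd74 above both. The ratio was taken only for members called in CPZ. H2-Aa, H2-Ab1 and H2-Eb1, not called there, also had larger log2 fold changes in RCV than in CPZ.

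Cells other than microglia, only some of which carry class II, were looked for by their markers. Of 9 border macrophage genes, 3 passed the filter and 1 was called, Stab1, at 1.69 ± 0.16 in CPZ against CTL (log2, adjusted p = 6.06e-06, edgeR). The mannose receptor gene Mrc1 had log2 fold changes of 0.71 ± 0.35 in CPZ and 0.44 ± 0.38 in RCV and was not called (adjusted p = 0.26 and 0.976, edgeR). The summed CPM of the 9 genes was 17.5 to 26.8 in CTL, 42.1 to 69.0 in CPZ and 22.1 to 29.7 in RCV. RCV thus overlapped with CTL. Stab1 made up most of this sum, with means of 14.19 CPM in CTL, 45.83 in CPZ and 15.98 in RCV. The sum mainly follows Stab1 and does not show that the other genes rose in CPZ. Of 9 dendritic cell genes 2 passed the filter, Flt3 and Zbtb46, and neither was called in any comparison. The sum of the 9 was 18.6 to 31.3 CPM in CTL, 23.03 to 31.9 in CPZ and 23.5 to 32.8 in RCV. Flt3 and Zbtb46 made up most of it, with means of 14.6 and 10.3 CPM in CTL. Xcr1 was at 0 in all libraries, Clec9a had at most 1 count and Ccr7 at most 2. Batf3 had 0 to 2 counts in CTL, 3 to 11 in CPZ, above all CTL libraries, and 0 to 4 in RCV, and was not tested. For B cells, Ms4a1 had at most 1 count in a library, and Cd79b had 0 to 2 in CTL, 2 to 11 in CPZ and 0 to 3 in RCV. Pax5 had 32 counts in RCV 3, the RCV library with the lowest Cd74, and 0 to 4 in the other 12. The 8 genes summed to 12.6 to 27.2 CPM in CTL, 31.4 to 44.4 in CPZ and 17.5 to 34.5 in RCV, where Ighm made up most of the counts. Among T cell genes, Cd3e, Cd3g and Cd8a had at most 2 counts and Cd3d at most 1. Cd4 had 13 to 148 counts in CTL, 32 to 102 in CPZ and 0 to 94 in RCV, with the 0 in RCV 3, Trbc2 had 8 to 42 counts over all libraries, and neither was called. The 9 genes, of which Cd4 and Trbc2 reached the highest counts, summed to 6.66 to 25.4 CPM in CTL, 10.2 to 19.7 in CPZ and 4.43 to 24.5 in RCV. For blood monocytes, Ly6c2 had at most 8 counts and Ccr2 at most 5, and the 8 genes summed to 85.4 to 117 CPM in CTL, 138 to 260 in CPZ and 93.0 to 156 in RCV, mostly from Fn1, Vcan and Itga4, which other brain cells also express. The 5 red blood cell genes summed to 181 to 244 CPM in CTL, 147 to 219 in CPZ and 221 to 316 in RCV. They were thus highest in RCV, as Cd74 was, with Hbb-bt and Hba-a2 called higher in RCV than in CPZ, and their part in the result was not tested. Cd74 was lowest within RCV in RCV 3 and highest in RCV 4, the 2 libraries that almost lacked choroid plexus RNA.

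The other genes of the pathway rose mostly in CPZ. Of 44 genes on lists drawn up for class II presentation, 34 passed the filter. In CPZ against CTL 19 of these were called, all higher, where 10.2% of all genes were called. In CPZ against RCV 15 were called, all higher in CPZ, where 7.01% of all genes were called. In RCV against CTL 2 were called, both higher, among them the protease gene Ctss, where 0.374% of all genes were called. The median log2 fold change of the 34 genes was 0.67 in CPZ against CTL and 0.24 in RCV against CTL.

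Of 9 genes of antigen processing, 7 were called higher in CPZ against CTL, where 7.66% of all genes were called higher. Cathepsin S, which makes the last cut in the invariant chain, rose with a log2 fold change of 2.65 ± 0.21 (Ctss, from 47.9 to 300.3 CPM, adjusted p = 3.81e-06, edgeR) and was at 1.24 ± 0.21 in RCV (113 CPM, adjusted p = 0.0284, edgeR). The aspartic protease gene Ctsd was at 2.90 ± 0.25, Ifi30, a thiol reductase that unfolds antigens in endosomes, at 2.28 ± 0.31, and Ctsl at 1.40 ± 0.17. All 7 were also called higher in CPZ than in RCV, where 5.13% of all genes were. Marchf1 and Marchf8, ubiquitin ligases that take class II off the surface, were not called, at -0.06 and -0.28.

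Of 8 tested genes on the interferon-γ route to Ciita, 4 were called higher in CPZ against CTL, where 7.66% of all genes were called higher. Among them Irf8 was at 2.77 ± 0.20, Socs3, a feedback inhibitor of cytokine signalling, at 1.75 ± 0.28 and the receptor chain gene Ifngr1 at 0.98 ± 0.15. The kinase genes Jak1 and Jak2 were not called, at 0.05 and 0.04. Ifng itself had 2 counts in 1 CPZ library and 0 in all others, so that its level was not measurable at this depth.

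Of 8 genes listed as class II promoter factors, 2 were called in CPZ against CTL, both higher. Over all genes, 7.66% were called higher there. Of the RFX genes, which encode the X box complex, Rfx5 was at 0.01 ± 0.08, Rfxap at -0.10 ± 0.11 and Rfxank at -0.05 ± 0.12 in CPZ against CTL, and they were not called in any comparison. In RCV against CTL 2 of these 3, Rfx5 at 0.24 and Rfxap at 0.23, had an unadjusted p below 0.05. For NF-Y, which binds CCAAT elements, Nfya was called at 0.38 ± 0.10 in CPZ (adjusted p = 0.0239, edgeR) and Nfyb and Nfyc were not. The other call among the 8 genes was Nlrc5, a relative of Ciita that drives MHC class I genes, at 2.46 ± 0.31 (adjusted p = 4.36e-05, edgeR), with 1.48 ± 0.34 in RCV (adjusted p = 0.0913, edgeR).

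H2-Ob, the β chain of H2-DO, which inhibits H2-DM, was the only one of 5 further genes of the class II region to pass the filter. It was called in CPZ against CTL at 2.12 ± 0.56 (0.419 to 1.92 CPM, adjusted p = 0.0204, edgeR) and not in RCV (1.02 ± 0.66, adjusted p = 0.933, edgeR). Its partner H2-Oa had 1 to 2 counts in CTL, 7 to 12 in CPZ and 1 to 7 in RCV and was not tested. Among costimulatory genes 3 of 6 passed the filter and all 3 were called higher in CPZ, namely Cd86 at 2.28 ± 0.20, Cd274 at 1.14 ± 0.18 and Icosl at 0.72 ± 0.18. Over all genes, 7.66% were called higher in CPZ against CTL. Cd86 was at 1.04 ± 0.23 in RCV (adjusted p = 0.0722, edgeR), and Cd40 and Cd80 had at most 8 counts in a library. Of 5 tested genes for ligands and co-receptors of Cd74, Cd44 (2.48 ± 0.21) and Cxcr4 (1.21 ± 0.33) were called higher in CPZ. The ligand gene Mif was at -0.02 ± 0.10 in CPZ and -0.21 ± 0.10 in RCV and was not called.

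Most MHC class I genes, which present peptides from the cytosol, rose in CPZ. Of 11 genes, 10 were called higher in CPZ against CTL, 3 in RCV against CTL and 8 in CPZ against RCV. Over all genes, 7.66%, 0.36% and 5.13% were called higher in these comparisons. The light chain gene B2m went from 52.3 CPM in CTL to 225 in CPZ and 94.8 in RCV, with log2 fold changes of 2.10 ± 0.13 in CPZ and 0.86 ± 0.13 in RCV (adjusted p = 2.39e-07 and 0.00902, edgeR). The heavy chain gene H2-K1 was at 1.78 ± 0.13 in CPZ and 0.91 ± 0.13 in RCV, and H2-D1 at 1.71 ± 0.16 and 0.99 ± 0.17. Psmb8, an immunoproteasome subunit gene, was at 2.41 ± 0.24 and 1.08 ± 0.27, the latter not called. All 11 were lower in RCV than in CPZ by fitted level, whereas Cd74, H2-Aa, H2-Ab1 and H2-Eb1 had higher fitted levels in RCV, none of the 4 differences passing the test. Heavy chain genes of the H2 family resemble each other, and reads can be split between them.

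**Figure D4:**
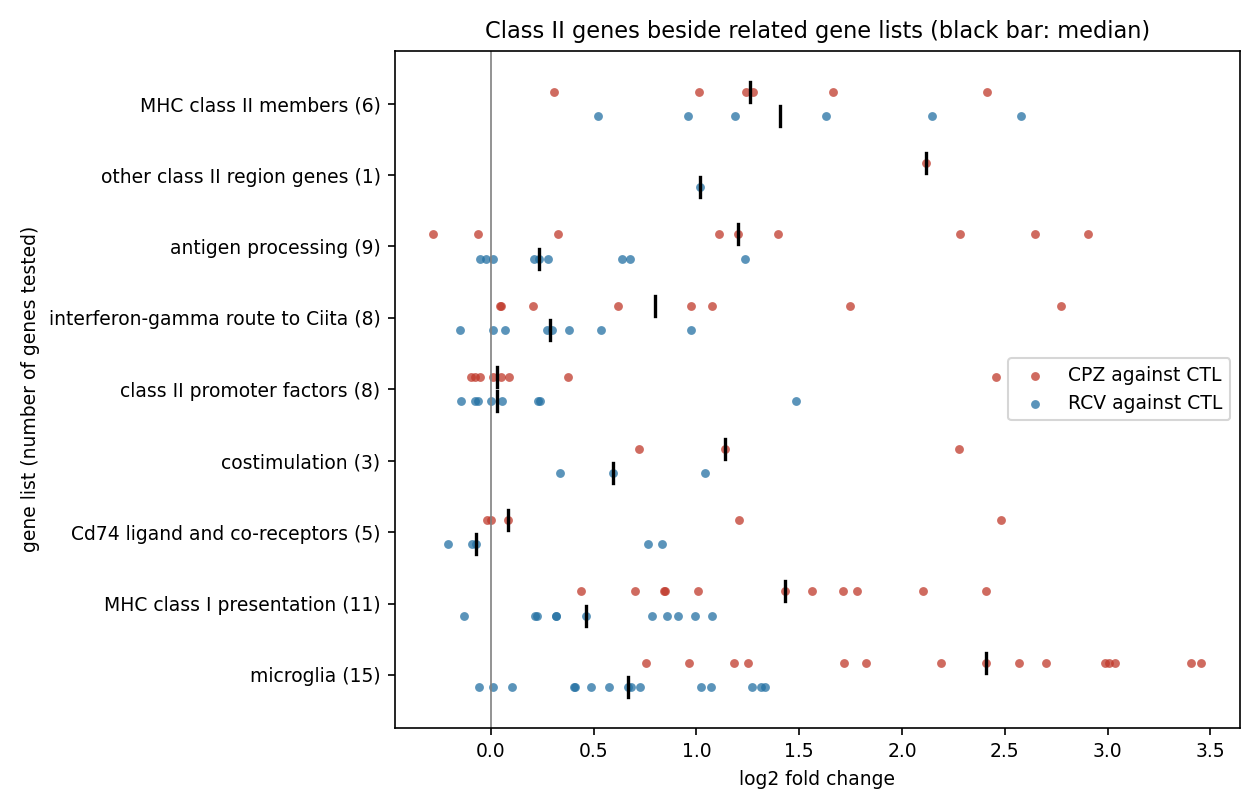
Log2 fold change (x axis) of each gene tested in 9 lists, in CPZ against CTL (red) and RCV against CTL (blue), which share the CTL libraries. Black bars are list medians. The median of the 6 class II members was 1.26 in CPZ and 1.41 in RCV, and that of the 15 microglia markers 2.41 in CPZ and 0.67 in RCV.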

How the data were processed

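Bulk RNA-seq of 13 libraries (5 CTL, 4 CPZ, 4 RCV; groups from the sample labels) was analysed. The authors prepared libraries with the Kapa mRNA HyperPrep Kit and used the RNASequest pipeline, and the submitters' processing notes name STAR, RSEM and mm10. The authors deposited estimated counts, not scaled to library size, of which 4.45% were not whole, and TPM values. Counting strand was not given in the sources used here. Estimated counts were rounded, filtered by group with filterByExpr, scaled by TMM and fitted for the 3 groups together with the robust quasi-likelihood test of edgeR 4.0.16 (R 4.3.3). Log2-CPM used a prior count of 2. SE were derived from the F statistic. DESeq2 1.42.0, limma 3.58.1 (voom, and log2(TPM + 1) or log2(TPM + 0.1) with a TPM of at least 1 in 4 libraries, or unfiltered), other filters, 2-group fits, the replicate number as a block and leaving out libraries were alternatives. Leaving out RCV 3 and RCV 4 was added after the data were seen. Single values were compared by exact two-sided permutation. Of the identifiers, 98.1% matched GENCODE M21. Members and lists were chosen with earlier results of these data known. The text names all members, up to 4 called genes per list with the largest change in CPZ, others where a count or a role needed them, and the 5 genes most correlated with Cd74 and H2-Ab1. Each library is 1 mouse. The nuclei and spatial data were not analysed here. Some genes of the lists are not reported here by name.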

Additional observations from a re-analysis of the deposited data

Results flagged for a closer look

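CTL 1 stood apart from the other CTL libraries in Cd74. Its log2-CPM was 0.85, against 1.94 to 2.34 in the other 4, and its Cd74 relative to the 15 microglia markers was -3.60, against -2.47 to -2.08. In both, the gap to the nearest library exceeded Dixon's 95% critical value for 5 samples. They are 2 of 21 groups of values examined, and chance alone gives about 1 in 20. Both rest on the same low Cd74 value of CTL 1, so they do not count as separate. Without CTL 1, Cd74 had a log2 fold change of 2.36 in RCV (adjusted p = 0.0557, edgeR) and 1.45 in CPZ (adjusted p = 0.0554, edgeR).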

How the results depend on the processing

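The counts of called genes in RCV against CTL depended most on the processing. Against 2 members called there, limma-voom and the replicate block each called 0, and limma on log2(TPM + 1), on log2(TPM + 0.1) and on unfiltered log2(TPM + 1) called 1 each. A minimum of 10 counts in every library kept 2 members for testing, Cd74 and H2-DMa, and called 1. H2-Aa and H2-DMb1 were thus not tested under that minimum. Leaving out 1 library at a time gave 0 to 2. Of the wider pathway genes, with 2 called, DESeq2 called 4, limma-voom 1, and the TPM fits 1, 1 and 0 in the same order, and leaving out single libraries gave 1 to 3. In CPZ against RCV the 1 member called, H2-DMb1, became 0 in the 3 TPM fits, and 1 to 2 members were called without single libraries. The count was also 0 under the minimum of 10 counts, where H2-DMb1 was not tested. The 15 wider genes became 9 in each TPM fit and 12 to 16 without single libraries. In CPZ against CTL the 3 members became 2 to 5 without single libraries, and 15 to 20 wider genes were called against 19. Without both RCV 3 and RCV 4, 1 member and 0 wider genes were called in RCV against CTL and 0 members in CPZ against RCV. Apart from members removed by the filter, the cause of these differences was not tested.

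Cd74 relative to microglia markers kept its direction in all alternatives. Without single libraries it was 1.49 to 2.00 log2 units in RCV against CTL, -2.61 to -2.02 in CPZ against RCV and -0.85 to -0.26 in CPZ against CTL. With 1 RCV library left out neither contrast with RCV could pass the adjusted exact test, and with 1 CPZ library left out CPZ against RCV could not. With the replicate numbers as pairs the differences were 1.87 and -2.31 (p = 0.125 by exact sign flips, below which 4 pairs cannot go), and without RCV 3 and RCV 4 they were 1.76 and -2.31. The numbers may be only names. Same-numbered libraries correlated between -0.20 and 0.14 in their deviations, and 1 of 13 correlated best with its own number. Such correlations do not settle whether the numbers are pairs. The log2 fold change of H2-Eb1 in CPZ against CTL ran from -0.046, without CPZ 3, to 0.57. The direction of no other member changed.

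Depth limits these results: the α and β chain genes had 4 to 19 counts per CTL library and Ciita 0 to 4 in any library.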
